A study of Mus musculus with 16 samples.

Results

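The genes described here were Hsd11b1, Abcc2, Hcar1, Scarf1, Foxf1, Tns1, Rapgef5, Sdc3 and Olfr99, 9 of the 14933 genes listed in tumours and of the 15653 listed in at least 1 table. They were selected on their tumour values, for large rises with the Nlrc5 guide, and grouped under the working name non-immune. That rise is therefore the criterion of choice, and its values below are a description without a test. Their values in cultured cells had no part in the choice and are tested.

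B16F10 is a mouse melanoma line, used here in the forms B16F10-TDM and B16F10-TDMa, whose suffixes the labels leave unexplained. The title of the series names targeted demethylation and activation of Nlrc5, the transactivator of major histocompatibility complex class I genes. Each line carried a guide RNA against Nlrc5 (sgNlrc5) or a scramble guide (sgScramble), so that the groups were TDM cultures with sgNlrc5 or sgScramble (2 libraries each), TDMa cultures with sgNlrc5 or sgScramble (2 each) and tumours of TDMa cells with sgNlrc5 or sgScramble (4 each). RNA sequencing gave 12183889 to 16390886 reads over the listed genes of a library. The strain, age and sex of the tumour hosts, the site of growth and the time of collection are not stated in the labels, nor is the origin of the replicates, so p-values measure only the spread between these libraries, which may be technical. Nlrc5 itself averaged 3916 ± 445 normalised counts in sgNlrc5 tumours and 577 ± 243 in sgScramble tumours (SD, n = 4 each). A normalised count is a read count divided by the size factor of its library. The summed melanocyte lineage markers stood between 626500 and 1004910 normalised counts in sgNlrc5 tumours and between 582885 and 656072 in sgScramble tumours, so pigment cell genes were abundant in every tumour.

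The 9 genes belong to unlike pathways. Hsd11b1 encodes the enzyme of the endoplasmic reticulum that regenerates active glucocorticoid from its inert keto form, and Abcc2 encodes an apical pump that exports conjugated organic anions, best known from bile canaliculi and kidney tubules. Hcar1 encodes a receptor for lactate known from adipocytes, Scarf1 a scavenger receptor for modified lipoprotein and dying cells that was described on endothelium and phagocytes, and Olfr99 an odorant receptor. Tensin 1 (Tns1) links integrins to actin, and syndecan 3 (Sdc3) is a transmembrane proteoglycan with heparan sulfate chains. Rapgef5 encodes an exchange factor that loads Rap GTPases with GTP, and Foxf1 a forkhead transcription factor of lung and gut mesenchyme and of endothelium, where hedgehog signals induce it.

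The promoters of these genes differed widely in CpG content. RefSeq promoter entries of GRCm38.p6, each running from 250 bases before to 50 bases after a start site, were at hand for 7 of the 9 genes, with 2 entries for Rapgef5 and none for Scarf1 and Foxf1. Those of Sdc3, Tns1, Hsd11b1 and Abcc2 are shown because these genes were measured in culture as well as in tumours and because their promoters run from CpG-rich (Sdc3, Tns1) over a middle count (Hsd11b1) to CpG-poor (Abcc2), CpG being the substrate of DNA methylation. Letters are 5′ to 3′ on the strand of the gene, and capitals mark each CpG.
Sdc3: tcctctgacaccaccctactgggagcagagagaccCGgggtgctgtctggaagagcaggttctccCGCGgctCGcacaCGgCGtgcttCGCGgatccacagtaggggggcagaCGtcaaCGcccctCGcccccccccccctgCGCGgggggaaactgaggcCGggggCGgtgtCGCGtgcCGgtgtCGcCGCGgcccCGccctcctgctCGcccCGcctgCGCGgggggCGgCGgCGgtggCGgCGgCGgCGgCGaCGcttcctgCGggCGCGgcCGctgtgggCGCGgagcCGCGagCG
Tns1: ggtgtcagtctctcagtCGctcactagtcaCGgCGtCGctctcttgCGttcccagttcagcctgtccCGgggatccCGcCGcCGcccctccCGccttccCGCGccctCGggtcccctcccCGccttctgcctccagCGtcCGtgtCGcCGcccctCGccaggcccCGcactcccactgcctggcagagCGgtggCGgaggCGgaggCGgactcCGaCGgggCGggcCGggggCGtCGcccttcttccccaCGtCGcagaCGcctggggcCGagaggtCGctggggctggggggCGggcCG
Hsd11b1: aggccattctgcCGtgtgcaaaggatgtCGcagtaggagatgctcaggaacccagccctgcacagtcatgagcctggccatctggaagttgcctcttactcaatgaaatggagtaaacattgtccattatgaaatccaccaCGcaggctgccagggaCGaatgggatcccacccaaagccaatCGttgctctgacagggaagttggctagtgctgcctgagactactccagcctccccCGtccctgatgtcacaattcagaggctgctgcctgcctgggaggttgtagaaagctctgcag
Abcc2: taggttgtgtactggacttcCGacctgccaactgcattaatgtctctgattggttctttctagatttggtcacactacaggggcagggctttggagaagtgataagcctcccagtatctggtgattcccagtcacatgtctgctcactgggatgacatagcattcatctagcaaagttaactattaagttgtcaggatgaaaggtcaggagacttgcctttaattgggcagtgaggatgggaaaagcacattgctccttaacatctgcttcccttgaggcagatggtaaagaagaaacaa
The Sdc3 entry lies on the plus strand at chr4:130792287-130792586 and held 44 CpG, and the Tns1 entry lies on the minus strand at chr1:74124499-74124798 and held 37. Against these, the Hsd11b1 entry, on the minus strand at chr1:193242311-193242610, held 6, and the Abcc2 entry, on the plus strand at chr19:43782058-43782357, held 1. The median over 32851 mouse promoter entries was 7, and 97.8% of them held fewer CpG than Sdc3 and 94.4% fewer than Tns1. These entries leave out a chromosome that holds none of the 9 genes, and are the ones meant below by all promoter entries. The Hcar1 entry held 8 CpG and that of Olfr99 1. Rapgef5 had an entry with 39 and another with 2. No methylation measurement was analysed here, so these counts describe sequence only.

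A search for 7 short motifs gave few matches. The letters TATAAA (a core promoter box), the interferon-stimulated response element, TTCNNNGAA (gamma-activated site), the AP-1 site and AGAACA (a glucocorticoid receptor site), searched on both strands, matched none of the 8 entries, where 13.6%, 3.44%, 8.30%, 7.81% and 19.0% of all promoter entries held them. CCAAT, the letters of the CCAAT box, matched in Hsd11b1, in the CpG-rich entry of Rapgef5, in Olfr99 and in Abcc2, against 37.4% of all entries. CATGTG, an E-box bound by the melanocyte factor MITF, matched once, in Abcc2, against 14.2% of all entries. A match is a description of these letters and not evidence of binding.

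In tumours all 9 genes had every sgNlrc5 library above every sgScramble library, where 18.1% of the 13385 genes tested showed that separation. With a limma fit, 39.4% of those genes passed a Benjamini-Hochberg adjusted p under 0.05, 19.7% higher and 19.7% lower with sgNlrc5. Since the 9 genes were chosen for this contrast, nothing is read from their count. A rise at least as large as the smallest of theirs, on the log2 scale of the normalised count plus 1, was seen in 327 genes, 2.44% of those tested. In TDMa culture 5 of the 9 genes were listed, and among them 1 rose and 3 fell, 4 in all, where 34.2% of genes passed in either direction, 17.3% of the 12138 tested rose and 16.9% fell. Of those 3, Abcc2 passed the filter on low values only through its sgScramble cultures, where it was higher, so that nothing is read from its part in that count. With equal sums of normalised counts in place of the deposited scaling, 38.8% of all genes called there were higher, against 50.5% with it. The sgNlrc5 cultures lay above both sgScramble cultures for 1 of the 5 and below them for 4, where 33.3% and 33% of all genes did so. Abcc2 was among those 4, and nothing is read from its part there either. In TDM culture the same 5 were listed and 0 passed the limma test, where 0.517% of 11989 genes passed. Of these 5, 2 had an unadjusted p under 0.05 there, where 9.04% of all genes did, and 0 passed with voom. The sgNlrc5 values lay above both sgScramble values for 1 of the 5 and below them for 2, where 19.3% and 19.3% of all genes did so. Hcar1, Scarf1, Rapgef5 and Olfr99 were not analysed in culture here.

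**Figure D1:**
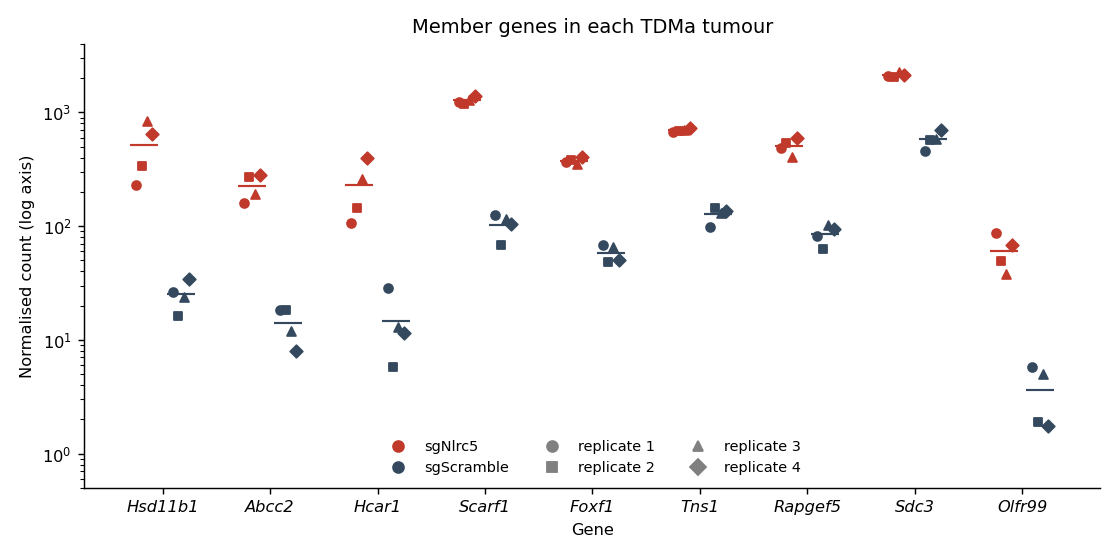
Normalised count (log axis) of each of the 9 genes in each TDMa tumour, with sgNlrc5 in red left of sgScramble in blue, the replicate as the symbol and the mean as a line. The groups do not overlap for any gene, and the sgNlrc5 tumours lie close together for Scarf1, Foxf1, Tns1 and Sdc3 and far apart for Hsd11b1 (229.6 to 846) and Hcar1 (107 to 401).

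Hsd11b1, the glucocorticoid-regenerating enzyme, was high in sgNlrc5 tumours and in both kinds of TDMa culture, and low in sgScramble tumours. It had 229.6, 336, 846 and 640.0 normalised counts in the 4 sgNlrc5 tumours, against 26.4, 16.2, 23.9 and 34.4 in the 4 sgScramble tumours. The lowest sgNlrc5 tumour lay far above the highest sgScramble tumour, and the sgNlrc5 tumours themselves fell into a lower and a higher pair. The means were 513 ± 282 and 25.2 ± 7.49 (SD, n = 4 each), a log2 difference of 4.16 ± 0.36 (SE). In TDMa culture the direction was the other one. Hsd11b1 had 497 and 554 normalised counts in the 2 sgNlrc5 cultures, against 691 and 649.7 in the 2 sgScramble cultures, a log2 difference of -0.35 ± 0.078 (limma adjusted p = 0.0017). The groups did not overlap, but the call ended without the intensity trend of the fit (adjusted p = 0.078) and without sgScramble replicate 1 (adjusted p = 0.068). In TDM culture it had 69.7 and 56.8 with sgNlrc5, against 72.3 and 55.2 with sgScramble, which overlapped (limma adjusted p = 1.0).

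Genes of glucocorticoid activation and response moved both ways in tumours. Of 10 tested, 3 rose and 3 fell, with a median log2 difference of -0.12, where that of all genes tested was -0.010. Over all genes tested, 19.7% rose and 19.7% fell in tumours, and 17.3% rose and 16.9% fell in TDMa culture. These shares stand beside each pathway list below. H6pd, which supplies the cofactor of the Hsd11b1 enzyme, rose by 0.60 ± 0.12 (limma adjusted p = 0.0024), and the hormone-induced kinase gene Sgk1 by 0.95 ± 0.17 (adjusted p = 0.0010). Fkbp5, a hormone-induced co-chaperone of the glucocorticoid receptor, fell by 0.62 on the log2 scale (limma adjusted p = 4.3e-04). In TDMa culture 4 of 10 rose and 0 fell, among them Fkbp5 at 0.38 (limma adjusted p = 4.7e-05) and Errfi1, an inhibitor of the epidermal growth factor receptor, at 0.63 (limma adjusted p = 2.9e-05).

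Abcc2, the organic anion pump, was high in sgNlrc5 tumours and in TDM cultures of either guide, and low in TDMa cultures and sgScramble tumours. In tumours it had 158, 272, 192 and 284 normalised counts with sgNlrc5, against 18.4, 18.1, 11.9 and 7.94 with sgScramble. The means were 227 ± 61.4 and 14.1 ± 5.08 (SD, n = 4 each), a log2 difference of 3.94 ± 0.29, with a wide gap between the groups. In TDMa culture it was near the limit of detection, with 4.5 and 4.84 normalised counts with sgNlrc5, from 4 and 5 reads, against 19.1 and 19.0 with sgScramble, from 20 reads each. Abcc2 fell there, by 1.82 on the log2 scale with an SE of 0.49 (limma adjusted p = 0.0068), but it passed the filter on low values, a mean of 10 normalised counts, only through the sgScramble cultures, so nothing is read from that difference. That call also rested on few reads and ended without sgScramble replicate 1 (adjusted p = 0.050). In TDM culture Abcc2 had 1322 and 1460.3 normalised counts with sgNlrc5, against 1257 and 1210.2 with sgScramble. Those cultures were all high, and their log2 difference of 0.17 ± 0.065 did not pass (limma adjusted p = 0.43).

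Among the other efflux pumps of the ABC family, 2 of 7 tested rose in tumours and 0 fell, with a median log2 difference of 0.26. Abcc5 rose by 0.75 (limma adjusted p = 5.4e-04) and Abcc3 by 1.41 (limma adjusted p = 0.015), while Abcc1 stood at 0.32 (limma adjusted p = 0.054). With quantile normalisation Abcc3 stood at 0.95 and no longer passed (adjusted p = 0.089), and Abcc1 passed with it (adjusted p = 0.020) and without sgNlrc5 replicate 1 (adjusted p = 0.0022). In TDMa culture 2 of 6 fell and 0 rose, Abcg2 by 1.09 (limma adjusted p = 4.0e-09) and Abcb1b by 0.45 (limma adjusted p = 0.019). The Abcb1b call ended with quantile normalisation (adjusted p = 0.062), without the intensity trend (adjusted p = 0.12), and without sgNlrc5 replicate 1 or either sgScramble culture (adjusted p between 0.13 and 0.19), where its log2 difference was -0.28 without sgNlrc5 replicate 1.

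The 3 receptor genes were followed in tumours only. Hcar1, the lactate receptor, had 107, 145, 259 and 401 normalised counts in sgNlrc5 tumours, against 28.7, 5.73, 12.9 and 11.5 in sgScramble tumours. Every sgNlrc5 tumour was higher than every sgScramble tumour, while both groups were spread widely. The means were 228 ± 132 and 14.7 ± 9.85 (SD, n = 4 each), a log2 difference of 3.88 ± 0.47. Of 11 genes of lactate handling and its receptors, 6 rose and 2 fell in tumours, with a median of 0.55. The lactate exporter gene Slc16a3 rose by 1.55 (limma adjusted p = 9.4e-04), Ldhd, encoding a lactate dehydrogenase of mitochondria, by 1.17 (limma adjusted p = 3.2e-04), and Hcar2, the related receptor of hydroxybutyrate and niacin, by 1.61 (limma adjusted p = 0.0015). In TDMa culture 5 of 8 rose and 1 fell, with Ldha, encoding the main glycolytic lactate dehydrogenase subunit, at 0.53 (limma adjusted p = 1.4e-11) and the transporter gene Slc16a1 at 0.56 (limma adjusted p = 1.1e-08).

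Scarf1, the scavenger receptor, had 1246, 1189, 1274 and 1395 normalised counts in sgNlrc5 tumours, against 125, 67.8, 116 and 104 in sgScramble tumours. The sgNlrc5 values lay close together and far above the sgScramble values. The means were 1276 ± 86.9 and 103 ± 25.3 (SD, n = 4 each), a log2 difference of 3.65 ± 0.17. Other scavenger receptor genes were higher as well: of 14 tested, 10 rose and 0 fell in tumours, with a median of 0.81. Its paralogue Scarf2 rose by 1.15 (limma adjusted p = 2.3e-05), the macrophage glycoprotein gene Cd68 by 1.98 (limma adjusted p = 2.9e-06) and Cxcl16, a membrane-bound chemokine that also binds oxidised lipoprotein, by 1.99 (limma adjusted p = 2.4e-04). Several genes of that list, Cd68 and Mrc1 among them, are macrophage markers, whose values in these tumours are given below. In TDMa culture 1 of 7 rose, Cd68 at 0.52 (limma adjusted p = 4.1e-06), and 3 fell, among them the endocytic receptor gene Lrp1 at -0.39 (limma adjusted p = 2.2e-05).

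Olfr99, the odorant receptor gene, was the least covered of the 9. It had 87.2, 49.3, 38.0 and 68.3 normalised counts in sgNlrc5 tumours, from 42 to 87 reads, against 5.75, 1.91, 4.97 and 1.76 in sgScramble tumours, from 2 to 5 reads. All sgScramble tumours were near 0 and all sgNlrc5 tumours well above. The means were 60.7 ± 21.7 and 3.60 ± 2.06 (SD, n = 4 each), a log2 difference of 3.79 ± 0.42 that the pseudocount pulls down, to 2.91 with a pseudocount of 5. Odorant receptors form a large multigene family, so reads shared with a close copy could not be judged here. Of 4 other odorant receptor genes and genes of their signalling that were tested in tumours, 0 passed with limma, 1 had an unadjusted p under 0.05 and 0 passed with voom. The cyclase gene Adcy3 stood at 0.57 (limma adjusted p = 0.057, but 0.039 with quantile normalisation and 0.0010 without sgNlrc5 replicate 1), Ric8b, a chaperone of G proteins, at 0.11 (limma adjusted p = 0.53) and Olfr1318 at -0.24 (limma adjusted p = 0.66). In TDMa culture 1 of 4 fell, Olfr56 at -2.41 (limma adjusted p = 3.1e-04), and 1 rose, Olfr1318 at 1.72 (limma adjusted p = 3.2e-04). The Olfr56 call ended without the intensity trend (adjusted p = 0.050).

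Tns1, the adhesion adaptor, was tightly held in sgNlrc5 tumours. It had 669, 685, 703 and 729 normalised counts there, against 97.7, 144, 130.2 and 135 in sgScramble tumours. The means were 697 ± 25.9 and 127 ± 20.2 (SD, n = 4 each), a log2 difference of 2.46 ± 0.13, and the gap between the groups was far wider than the spread in either. In TDMa culture it had 413 and 388 with sgNlrc5, against 486 and 457 with sgScramble, all 4 close together and lower with sgNlrc5. The log2 difference of -0.24 ± 0.087 passed narrowly (limma adjusted p = 0.044) and ended with quantile normalisation (adjusted p = 0.058), without the intensity trend (adjusted p = 0.11) and with any 1 culture left out (adjusted p between 0.060 and 0.26). In TDM culture Tns1 had 29.2 and 25.6 with sgNlrc5, against 30.0 and 36.1 with sgScramble, low in all 4 (log2 difference -0.26 ± 0.32, limma adjusted p = 0.86).

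The focal adhesion genes around tensin showed no common direction. In tumours 2 of 14 rose and 3 fell, with a median of -0.042. Itga5, the alpha chain of the fibronectin receptor, rose by 0.81 (limma adjusted p = 7.2e-05), whereas the kindlin gene Fermt2 fell by 0.99 (limma adjusted p = 3.5e-04) and Tns3, the paralogue of Tns1, by 0.56 (limma adjusted p = 0.0031). In TDMa culture 1 of 14 rose and 6 fell, among them Tns3 at -0.67 (limma adjusted p = 2.6e-09) and the zyxin gene Zyx at -0.37 (limma adjusted p = 1.6e-06).

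Sdc3, the syndecan, was the 1 gene of the 5 that was higher with sgNlrc5 in TDMa culture too. In tumours it had 2099, 2038, 2246 and 2129.8 normalised counts with sgNlrc5, against 461, 573, 585 and 695 with sgScramble. The means were 2128 ± 87.4 and 578 ± 95.8 (SD, n = 4 each), a log2 difference of 1.89 ± 0.11, the smallest of the 9. In TDMa culture it had 1039 and 1001 with sgNlrc5, against 736 and 632 with sgScramble, without overlap, and rose by 0.58 ± 0.072 (limma adjusted p = 4.4e-06). That call held under every alternative tried, with an adjusted p of 0.048 at most. In TDM culture the order was opposite. Sdc3 had 298 and 347 with sgNlrc5, against 444 and 416 with sgScramble, and a log2 difference of -0.42 ± 0.11 that did not pass (limma adjusted p = 0.12). Without sgNlrc5 replicate 2 the difference was -0.53 and passed (limma adjusted p = 0.039).

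Heparan sulfate proteoglycans and the enzymes of their chains were often higher in tumours. Of 20 tested, 9 rose and 1 fell, with a median of 0.32, where 19.7% of all genes rose and 19.7% fell. Leaving out 1 tumour library gave 7 to 14 called. The glypican gene Gpc4 rose by 1.76 (limma adjusted p = 4.7e-05), the syndecan gene Sdc4 by 0.79 (limma adjusted p = 6.8e-05) and Ext2, a subunit of the enzyme that extends the chains, by 0.70 (limma adjusted p = 3.5e-04). In TDMa culture 5 of 18 rose and 5 fell. The sulfotransferase gene Hs3st1 rose by 2.48 (limma adjusted p = 2.8e-12) and the perlecan gene Hspg2 fell by 0.41 (limma adjusted p = 1.2e-08). In TDM culture 1 of 16 passed, Sulf2, an extracellular sulfatase of these chains, at 0.29 (limma adjusted p = 0.032). The remaining pathway lists together had 0 of 71 genes called by limma in TDM culture, 8 at an unadjusted p under 0.05 and 0 with voom. Of all genes tested there, 0.517% passed with limma and 9.04% had an unadjusted p under 0.05.

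Rapgef5, the Rap exchange factor, had 485, 542, 408 and 602 normalised counts in sgNlrc5 tumours, against 81.6, 63.0, 103 and 93.5 in sgScramble tumours. The means were 509 ± 82.6 and 85.4 ± 17.4 (SD, n = 4 each), a log2 difference of 2.57 ± 0.17, with the groups well apart. Among 21 Rap GTPases and their regulators 5 rose and 3 fell in tumours, with a median of -0.069. Rap1gap2, which switches Rap off, rose by 2.39 (limma adjusted p = 0.0016), while the exchange factor gene Rapgef6 fell by 0.68 (limma adjusted p = 2.0e-04) and the GTPase gene Rap2a by 0.49 (limma adjusted p = 9.0e-04). In TDMa culture 9 of 18 rose and 2 fell, with the exchange factor gene Rapgef3 at 0.59 (limma adjusted p = 2.5e-06) and the GTPase-activating gene Sipa1l2 at 0.47 (limma adjusted p = 3.7e-06).

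Foxf1, the forkhead factor, had 363, 384, 354 and 406 normalised counts in sgNlrc5 tumours, against 67.8, 48.7, 65.6 and 50.3 in sgScramble tumours. Both groups were narrow and far apart, with means of 377 ± 23.3 and 58.1 ± 10.0 (SD, n = 4 each) and a log2 difference of 2.69 ± 0.15. In TDMa culture it had 63.0 and 44.6 with sgNlrc5, against 71.8 and 73.2 with sgScramble. All sgNlrc5 values were below the sgScramble values, but the difference of -0.45 ± 0.24 did not pass (limma adjusted p = 0.16). In TDM culture it had 38.2 and 19.9 with sgNlrc5, against 24.7 and 15.9 with sgScramble, which overlapped (0.46 ± 0.40, limma adjusted p = 0.78).

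Of 6 mesenchymal FOX and hedgehog genes tested in tumours, 1 rose and 0 fell, with a median of -0.053. The 1 was Fendrr, the long noncoding RNA transcribed next to Foxf1, which passed the filter on low values only through the sgNlrc5 tumours. Nothing is read from that count. The hedgehog effector Gli3 stood at -0.38 (limma adjusted p = 0.055, but between 0.023 and 0.043 without sgNlrc5 replicate 3 or 4 or sgScramble replicate 4). Foxc1, a forkhead gene of mesenchyme, stood at -0.25 (limma adjusted p = 0.13). In TDMa culture 2 of 7 rose and 2 fell. Those that fell were Fendrr, described below, and the hedgehog target Gli1, at -1.42 (limma adjusted p = 0.011), a call that ended without sgNlrc5 replicate 2, either sgScramble culture or the intensity trend (adjusted p between 0.11 and 0.12).

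**Figure D2:**
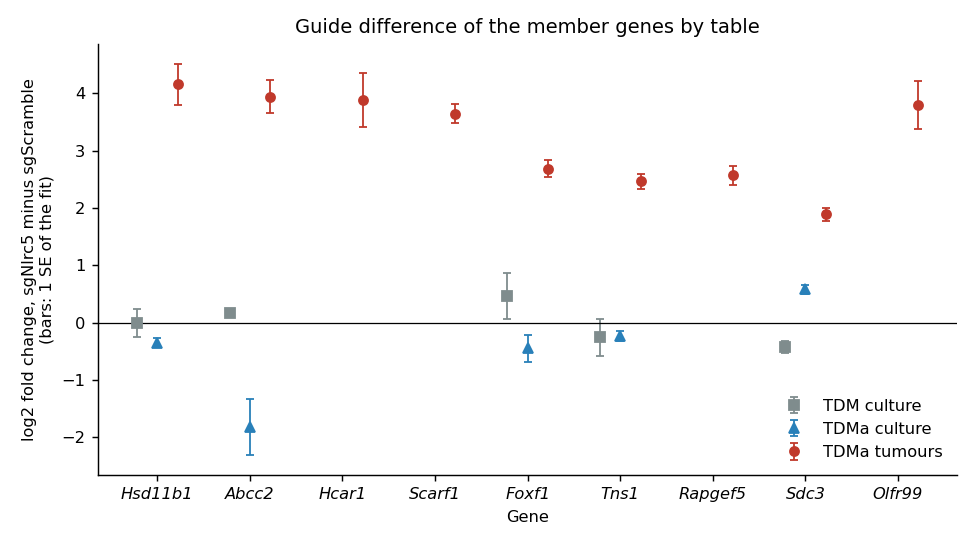
Log2 difference of the normalised count plus 1, sgNlrc5 minus sgScramble, for each gene in TDM culture (grey squares), TDMa culture (blue triangles) and TDMa tumours (red circles), with bars of 1 SE of the limma fit. The tumour differences run between 1.89 and 4.16, while in culture the listed genes lie between -1.82 and 0.58. The value of -1.82 is that of Abcc2 in TDMa culture, which passed the filter on low values only through the sgScramble cultures.

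The spread among sgNlrc5 tumours split the genes. Hsd11b1 and Hcar1 had SDs of 0.86 and 0.85 on the log2 scale over the 4 sgNlrc5 tumours, where genes within 1.5-fold of their levels had medians of 0.15 and 0.19. Their highest sgNlrc5 tumour was 3.69 and 3.74 times their lowest. Abcc2 followed with 0.40, against 0.19 for genes of like level, and Olfr99 with 0.52, against 0.34. Scarf1, Foxf1, Tns1 and Sdc3 had SDs of 0.097, 0.088, 0.053 and 0.059, below the medians of 0.14 to 0.16 for genes of like level, and Rapgef5 had 0.24, against 0.15. In sgScramble tumours the SDs ran between 0.24 for Sdc3 and 0.88 for Hcar1.

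Set side by side, the 5 genes listed in all tables stood at unlike levels in the TDM line, the TDMa line and the tumours. Values here are reads scaled to 1000000 over the listed genes of a library (RPM), as mean ± SD. Each table was normalised alone and lists its own genes, so these levels carry no test across tables. Hsd11b1 stood at 38.3 ± 2.91 in sgNlrc5 and 50.5 ± 2.25 in sgScramble TDMa cultures (n = 2 each), and at 35.2 ± 20.1 in sgNlrc5 and 1.75 ± 0.509 in sgScramble tumours (n = 4 each). The mean of sgNlrc5 tumours was thus near that of both cultures of the same line, and the sgScramble tumours were the group that stood apart. Single sgNlrc5 tumours ran from 15.8 to 58.9, on either side of the cultures (36.3 to 40.4 with sgNlrc5, 48.9 to 52.1 with sgScramble). By its mean, the working description "gained with the Nlrc5 guide" holds for Hsd11b1 only against sgScramble tumours, a comparison across tables that was not tested. Tns1 was lowest in sgScramble tumours as well, at 29.2 ± 1.32 in sgNlrc5 and 35.5 ± 1.61 in sgScramble TDMa cultures, and at 47.5 ± 2.91 in sgNlrc5 and 8.81 ± 1.48 in sgScramble tumours, but its sgNlrc5 tumours lay above all TDMa cultures.

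Foxf1 stood at 3.92 ± 0.953 in sgNlrc5 and 5.46 ± 0.0726 in sgScramble TDMa cultures, and at 25.7 ± 1.74 in sgNlrc5 and 4.03 ± 0.664 in sgScramble tumours, so that the sgNlrc5 tumours were the group apart. Sdc3 stood at 74.4 ± 2.04 in sgNlrc5 and 51.5 ± 5.61 in sgScramble TDMa cultures, and at 145 ± 10.2 in sgNlrc5 and 40.2 ± 6.71 in sgScramble tumours. Abcc2 was at 0.341 ± 0.0175 in sgNlrc5 and 1.44 ± 0.00765 in sgScramble TDMa cultures, and at 15.4 ± 4.03 in sgNlrc5 and 0.980 ± 0.355 in sgScramble tumours. The highest Abcc2 level of the series was in the other line, at 98.3 ± 7.38 in sgNlrc5 and 87.6 ± 2.65 in sgScramble TDM cultures (n = 2 each). Hsd11b1 and Tns1 were low in the TDM line, at 4.47 ± 0.625 and 1.94 ± 0.175 with sgNlrc5, and at 4.53 ± 0.878 and 2.34 ± 0.297 with sgScramble.

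**Figure D3:**
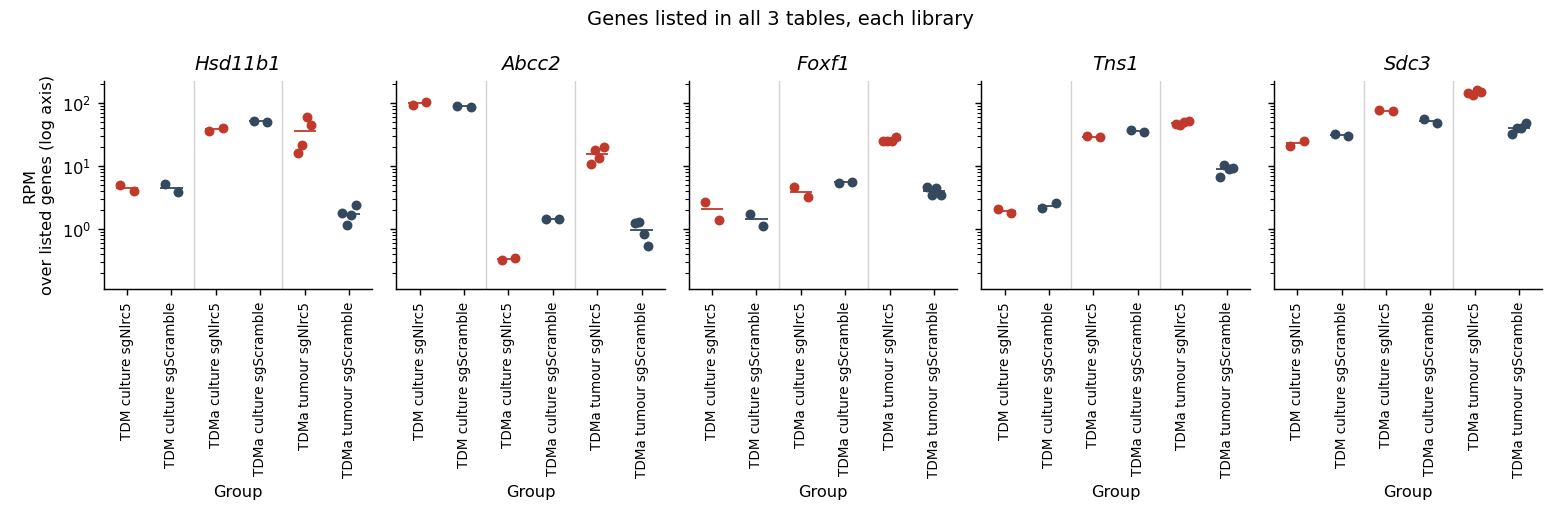
RPM over the listed genes (reads scaled to 1000000, log axis) in each of the 16 libraries for the 5 genes listed in all tables, sgNlrc5 in red left of sgScramble in blue within TDM culture, TDMa culture and TDMa tumours, with the mean as a line. Hsd11b1 and Tns1 are low in sgScramble tumours (1.75 and 8.81) relative to both TDMa cultures, and Abcc2 is high in both TDM cultures (98.3 and 87.6).

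Markers of other cell types moved with the guide in the same tumours. The 10 T cell markers summed to 500.0 to 1701 normalised counts in sgNlrc5 tumours and to 130 to 224 in sgScramble tumours. All 10 markers rose, among them the T cell receptor subunits Cd3e at 2.84 and Cd3d at 3.0. Both of these averaged under 10 normalised counts in sgScramble tumours and passed the filter on low values only through the sgNlrc5 tumours. The same held for Cd4, at 2.30 to 9.94 in sgScramble tumours. Cd3g, Trac, Cd2 and Cd8b1 were also low there, each with values under 10 and none above 16.8. Nothing is read from the count of T cell markers that rose. The summed level of 10 macrophage markers lay between 11826 and 15019 in sgNlrc5 tumours and between 3210 and 4715 in sgScramble tumours, and all 10 rose, with Adgre1 at 2.13 and the growth factor receptor Csf1r at 1.59 (limma adjusted p = 4.2e-05 and 6.1e-05). Natural killer cell markers (3 of 4 tested), dendritic cell markers (1 of 3), B cell markers (1 of 2) and neutrophil markers (1 of 1) also rose, with sums that did not overlap. Eomes, among those 3 natural killer cell markers, had 1.91 to 7.06 normalised counts in sgScramble tumours. It passed the filter only through the sgNlrc5 tumours, so nothing is read from its part. Beside all marker counts, here and below, 19.7% of all genes tested rose and 19.7% fell in tumours. In bulk tumours fewer cells of a type and less RNA per cell cannot be told apart. The part of these cells in the 9 genes was not tested.

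The genes were ordered in different ways over the sgNlrc5 tumours. By replicate number, the T cell sum was 1701, 963, 500.0 and 759.5 and the macrophage sum 13419.8, 13007.5, 15019 and 11826, while Hsd11b1 was highest in replicate 3, Hcar1, Abcc2 and Rapgef5 were highest in replicate 4, and Scarf1, Foxf1, Tns1 and Sdc3 hardly varied. Olfr99, at 87.2, 49.3, 38.0 and 68.3, shared its highest and lowest replicates, 1 and 3, with the T cell sum. Replicates 2 and 4 stood in the opposite order. Nothing is read from such orders over 4 tumours. In TDMa culture 0 of the 10 T cell markers and 2 of the 10 macrophage markers, Cd68 and Mertk, were listed, while Hsd11b1 and Tns1 had the levels given above there. In TDM culture 2 of the 10 T cell markers, Cd3d and Lck, were listed, so these were not limited to tumours. Cd3d had 549 to 581 normalised counts there with sgNlrc5 and 487 to 566 with sgScramble, where its highest tumour value was 98.3. Lck had 112 to 118 with sgNlrc5 and 94.4 to 97.9 with sgScramble in TDM culture.

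Stromal and epithelial markers gave a mixed picture. The summed endothelial markers, mostly Vwf, overlapped, at 4307 to 5779 in sgNlrc5 and 4261 to 5379 in sgScramble tumours, and of 7 tested 0 passed with limma, 1 had an unadjusted p under 0.05 and 0 passed with voom. Vwf was also read in TDMa culture, at 1268 to 1295 normalised counts with sgNlrc5 and 507 to 554 with sgScramble. Pecam1 and Cdh5, the defining endothelial markers, stood at -0.20 and 0.90 (limma adjusted p = 0.75 and 0.37). Summed fibroblast markers were 876 to 1055 in sgNlrc5 and 332 to 761 in sgScramble tumours. Of 6 tested, 3 rose and 1 fell, with the collagen gene Col1a1 at 0.82 and the receptor gene Pdgfra at -1.35 (limma adjusted p = 0.026 and 8.8e-04). In TDMa culture 4 of the 10 fibroblast markers were listed, summing to 571 to 606 with sgNlrc5 and 736 to 776 with sgScramble. Pericyte and smooth muscle sums overlapped in tumours, with 3 of 7 higher. In TDMa culture 5 of those 9 markers were listed, summing to 590 to 624 with sgNlrc5 and 836 to 864 with sgScramble. Neither set was thus limited to tumours. Of 7 adipocyte markers only Fabp4 was listed, at 80.4 to 103 in sgNlrc5 and 20.7 to 119 in sgScramble tumours. Of 7 liver and kidney markers only Ttr was listed, at 63.2 to 183 in sgNlrc5 and 13.4 to 21.8 in sgScramble tumours, and it rose by 2.87 (limma adjusted p = 8.8e-05).

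**Figure D4:**
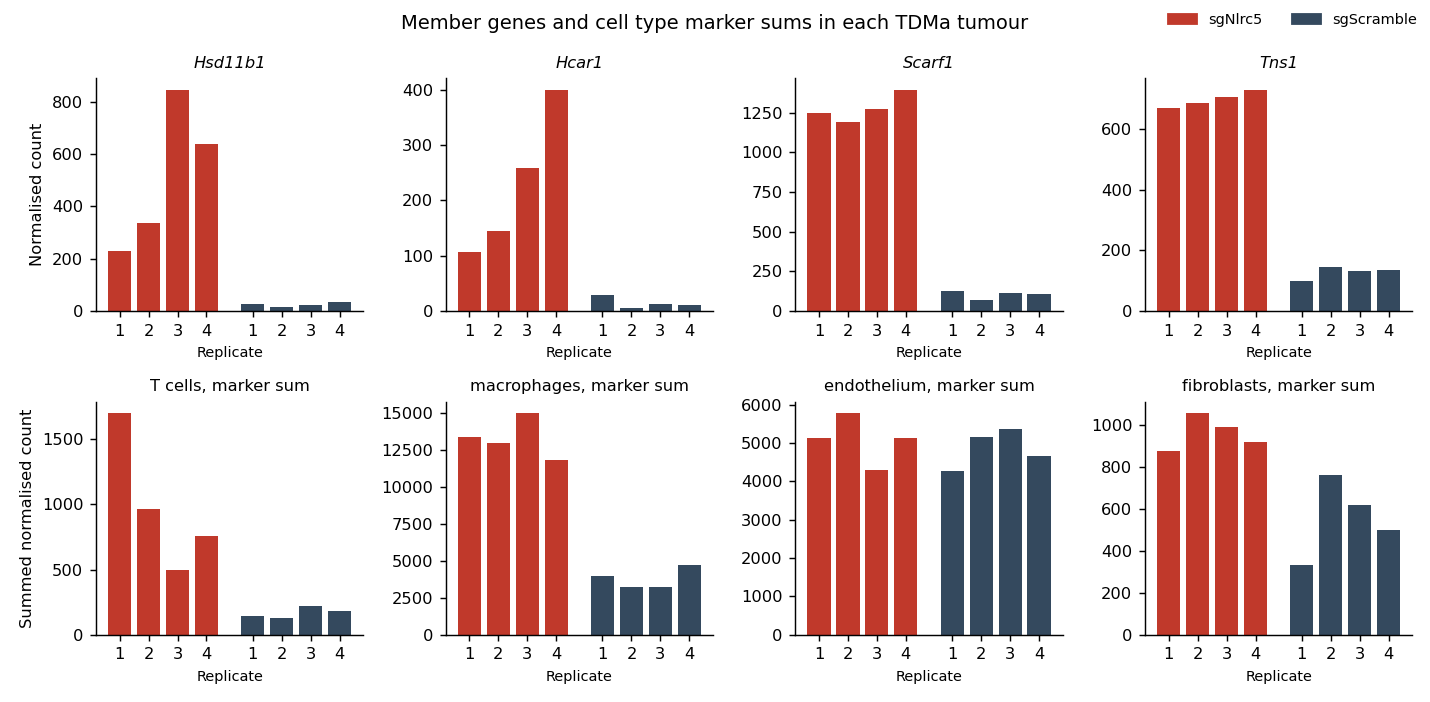
Normalised counts of Hsd11b1, Hcar1, Scarf1 and Tns1 (upper row) and summed normalised counts of T cell, macrophage, endothelial and fibroblast markers (lower row) in each TDMa tumour, sgNlrc5 in red left of sgScramble in blue. T cell sums run between 500.0 and 1701 and macrophage sums between 11826 and 15019 in sgNlrc5 tumours, above all sgScramble tumours, while endothelial sums overlap.

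Genes next to the 9 on the chromosome were compared with them, taken by position whether or not they moved. Of the 54 genes that lie within 3 places on either side in RefSeq order, 24 were tested in tumours, of which 9 rose and 3 fell, where 19.7% of all genes rose and 19.7% fell. Fendrr, Rilp and 6030407O03Rik averaged under 10 normalised counts in sgScramble tumours. They passed the filter on low values only through the sgNlrc5 tumours, so nothing is read from their part in that count. In TDMa culture 5 of 19 rose and 3 fell, where 17.3% of all genes rose and 16.9% fell. Among those that fell, Ccdc62 (9.75 with sgNlrc5, 21.9 with sgScramble) passed the filter only through the sgScramble cultures, so nothing is read from its part either. In TDM culture 0 of 19 passed with limma and 3 had an unadjusted p under 0.05, where 0.517% and 9.04% of all genes did. With voom 0 passed. Fendrr, next to Foxf1, had 81.5 ± 20.3 normalised counts in sgNlrc5 and 8.50 ± 1.86 in sgScramble tumours. Its log2 difference of 3.11 ± 0.27 there is a description without a test. In TDMa culture it had 33.5 ± 13.1 with sgNlrc5 and 67.7 ± 3.77 with sgScramble (-1.05 ± 0.29, limma adjusted p = 0.0079), so that it stood on the same side as Foxf1 in both tables. That culture call ended without the intensity trend (adjusted p = 0.11) and without sgNlrc5 replicate 2 or either sgScramble culture (adjusted p between 0.092 and 0.12).

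Neighbours of the receptor genes moved both ways. Near Scarf1, Tlcd2 rose by 1.67 and Slc43a2, an amino acid transporter gene, by 1.18 (limma adjusted p = 2.8e-04 and 4.6e-05). Rilp, an adaptor of lysosome transport, stood at 1.75, a description only, as it passed the filter only through the sgNlrc5 tumours. Prpf8, a core spliceosome gene that lies among them, stood at -0.14 (limma adjusted p = 0.60). Pitpna, a lipid transfer gene, stood at 0.041 (limma adjusted p = 0.70). In TDMa culture Prpf8 rose by 0.19 and Pitpna by 0.23 (limma adjusted p = 1.5e-04 and 4.4e-05). Those 2 calls ended without the intensity trend (adjusted p = 0.13 and 0.066). Tlcd2 and Slc43a2 did not pass in TDMa culture (limma adjusted p = 0.099 and 0.31). Hcar2, next to Hcar1, had 83.8 ± 15.8 in sgNlrc5 and 28.6 ± 14.2 in sgScramble tumours, whereas Rsrc2, Kntc1 and Denr around it fell by 0.45, 0.48 and 0.43 (limma adjusted p = 0.011, 0.042 and 0.0034). Near Olfr99 lies H2-M3, a class I gene that presents formylated peptides, which had 1407 ± 209.9 in sgNlrc5 and 251 ± 106 in sgScramble tumours (2.58 ± 0.27, limma adjusted p = 4.5e-05). In TDMa culture H2-M3 rose by 3.72 ± 0.51 (limma adjusted p = 1.4e-05), a call that ended without the intensity trend (adjusted p = 0.085). That log2 difference was 2.49 without sgScramble replicate 2 and 4.94 without sgScramble replicate 1.

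Hip1r, a clathrin adaptor gene near Hcar1, rose by 0.86 in TDMa culture (limma adjusted p = 2.1e-07). Fewer neighbours of the remaining genes could be tested. None of the neighbours of Sdc3 was tested. Of those of Tns1, 1 was, the noncoding 6030407O03Rik, which is named here after its values were seen. It had 37.0 ± 18.9 in sgNlrc5 and 7.29 ± 4.91 in sgScramble tumours (log2 difference 2.23 ± 0.48). It passed the filter on low values only through the sgNlrc5 tumours, so that difference is a description without a test. In the GENCODE M21 annotation 10 genes overlap Hsd11b1, Foxf1, Rapgef5 or Sdc3, and none of them was listed in tumours, so reads of an overlapping gene could not be compared.

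**Figure D5:**
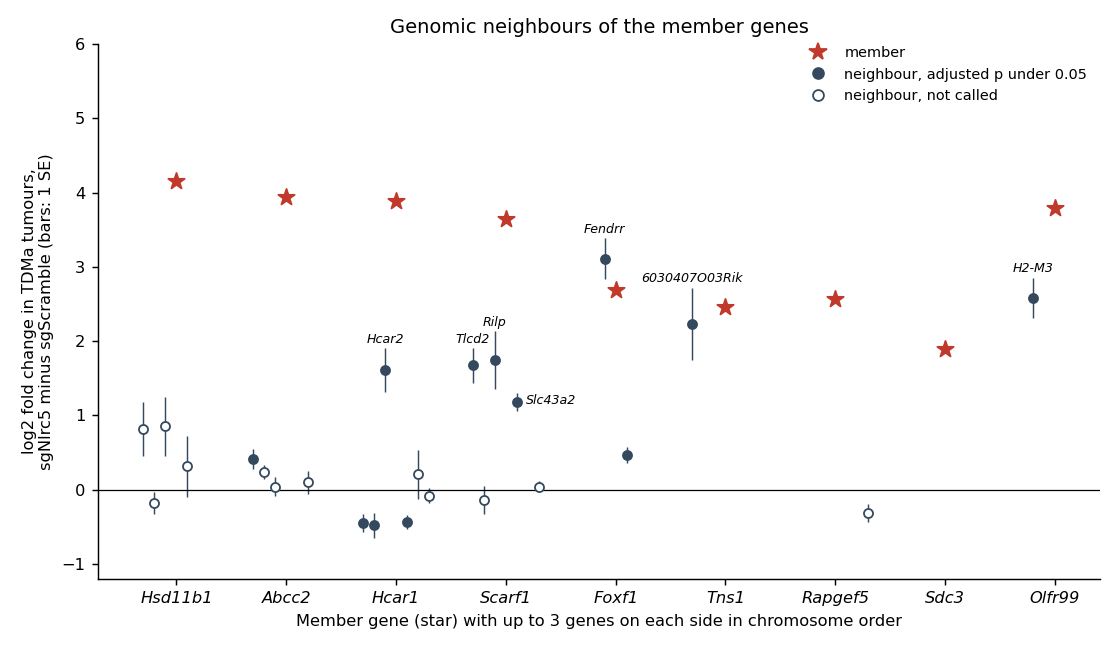
Log2 difference in TDMa tumours, sgNlrc5 minus sgScramble, of each of the 9 genes (stars) and of its tested neighbours in chromosome order (circles, filled where the limma adjusted p is under 0.05, bars of 1 SE). Fendrr at 3.11 and H2-M3 at 2.58 are the highest neighbours. Fendrr, Rilp and 6030407O03Rik passed the filter on low values only through the sgNlrc5 tumours.

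Genes with the most similar profile over the 8 tumours were sought by the root mean square difference of log2 values, each gene centred on its mean. Since the guide difference dominates these profiles, likeness here is largely a rise of like size. The genes were chosen on the same tumour values, so no cell source or function is read from it. Hsd11b1 and Hcar1 were each the nearest of the other, at 0.54, where the median over all genes tested was 2.18 for Hsd11b1. Jph2 and Scarf1 followed for both. Foxf1 was nearest to Pla2g5 (0.18), Rapgef5 and Lpin3 (0.21 each), and Rapgef5 to Foxf1 and Hpn (0.21 each) and Lat (0.24). Sdc3 was nearest to Vsir (0.16), Mpeg1 (0.17) and Lncbate10 (0.17). Tns1 was nearest to Lhfpl1 and Lat (0.25 each) and Hpn (0.27). Scarf1 was nearest to Loxl1 (0.36), Cort (0.42) and Olfr99 (0.43), and Olfr99 to Scarf1 (0.43), Cd8a (0.47) and Hif3a (0.56). Abcc2 was nearest to Scarf1 and Enpep (0.53 each) and Loxl1 (0.56).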

How the data were processed

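RNA sequencing values were deposited as 1 table each for TDM culture, TDMa culture and TDMa tumours. Per the file headers and the labels, the deposited values are log2 of a count divided by the library's size factor, plus 1. Tools named in the submitters' processing notes are STAR 2.7.10a, DESeq2 1.36.0 and FastQC 0.12.0, and the build is GRCm39 (mm39), with no role given for any. Per the labels' protocols the libraries were made with a strand-keeping kit. How reads were counted, by which annotation and with which strand setting, is not stated there, nor is the rule for listing a gene. The fewest reads of any listed gene were 40 over the tumour table and 20 over each culture table.

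The values were turned back to normalised counts, and whole reads were recovered from their steps, which were whole within 0.1 read for 100% of values up to 2000 reads. The depth was 12183889 to 16390886 recovered reads over listed genes per library, and genes with few reads carry wide counting error. In each table genes averaging 10 normalised counts or more were compared with limma 3.58.1 in R 4.3.3, with an intensity trend, on log2 of the normalised count plus 1, and p-values were adjusted by Benjamini-Hochberg over all genes tested (threshold 0.05). Fold changes on that scale understate those of low genes. A gene averaging under 10 with 1 guide entered the test only through the other guide, where it was higher. Such genes also count in the numbers called. Each table was normalised alone, so no test crossed tables. The script was tested on simulated data.

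The genes, the pathway lists and the marker lists were chosen with earlier results of these data known. Named from each pathway list were up to 3 tested genes with the smallest p in tumours and up to 2 in TDMa culture, from the neighbours mainly those called with the smallest p, from the marker lists the first 2 markers and the sums, and by likeness the 3 nearest genes. The separate values of 1 neighbour that met this rule are not reported here. Further neighbours and markers named beside them were chosen after their values were seen. Neighbours came from the order of genes in RefSeq (GRCm38.p6), matched by NCBI identifier or symbol, and promoters from the RefSeq table of the same build. Alternatives were no filter, a mean of at least 50, a pseudocount of 5, equal sums, quantile normalisation, no intensity trend, voom on recovered reads, a replicate block and leaving out each library.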

Additional observations from a re-analysis of the deposited data

Results flagged for a closer look

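In 56 sets of 4 tumours of 1 guide that were examined (a gene or a marker sum each), 2 had a tumour far from the other 3, and chance gives about 1 in 20. The adipocyte marker sum, which rests on Fabp4 alone, was low in sgNlrc5 replicate 4, at 80.4 normalised counts. The erythroid marker sum was high in sgScramble replicate 4, at 3205 normalised counts (3204.5).

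Genes were also picked out because every sgNlrc5 library lay on opposite sides of the sgScramble libraries in different tables, a difference between tables that was not tested. Against a rise in tumours, the log2 differences in TDMa culture were -0.35 for Hsd11b1, -1.82 for Abcc2, -0.45 for Foxf1 and -0.24 for Tns1. Against the same rise, those in TDM culture were -0.26 for Tns1 and -0.42 for Sdc3. Between the cultures, Abcc2 stood at -1.82 in TDMa and 0.17 in TDM, and Sdc3 at 0.58 in TDMa and -0.42 in TDM. In TDMa culture Abcc2 passed the filter on low values only through the sgScramble cultures, so nothing is read from its value of -1.82.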

How the results depend on the processing

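The tumour log2 differences of the 9 genes kept their direction under all alternatives. That of Olfr99, with few reads, was 2.91 with a pseudocount of 5 against 3.79. Among the pathway counts in tumours, ABC pumps had 1 called and FOX genes 0 at a mean of at least 50, tensin genes 3 with the replicate block, and odorant receptor genes 1 with no filter and 1 with quantile normalisation. Leaving out 1 library gave 1 to 2 for FOX, 3 to 7 for tensin and 0 to 1 for odorant receptor genes. In TDMa culture the total fell to 1581 genes without the intensity trend (722 higher, 859 lower). Without it, ABC pumps had 1, lactate genes 3, FOX genes 0, tensin genes 2, Rap genes 6, heparan sulfate genes 5, odorant receptor genes 1 and neighbours 2. ABC pumps had 1 with quantile normalisation and odorant receptor genes 0 at a mean of at least 50. Hsd11b1 lost its call without the trend (-0.35) and Tns1 with quantile normalisation (-0.23) and without the trend (-0.24). Leaving out 1 TDMa culture gave 2512 to 3335 genes (1320 to 1651 higher, 1192 to 1684 lower), with 2 to 4 glucocorticoid genes, 1 to 2 ABC pumps, 0 to 3 FOX genes and 3 to 5 tensin genes. The members then ran between -0.43 and -0.27 for Hsd11b1, -1.87 and -1.78 for Abcc2, and -0.28 and -0.19 for Tns1. In TDM culture 2 genes passed without the trend (1 higher, 1 lower) and 16 were lower with quantile normalisation. Leaving out 1 library there gave 62 to 146 genes (37 to 61 higher, 18 to 87 lower), Sdc3 between -0.53 and -0.31, and Hsd11b1 between -0.20 and 0.19, positive without sgScramble replicate 1 (0.19) and without sgNlrc5 replicate 2 (0.14). Near-zero differences of neighbours also changed sign: Prpf8 without sgNlrc5 replicate 1 in tumours (0.076, range -0.26 to 0.076) and TDM culture (0.015, range -0.12 to 0.015), and Pitpna in TDM culture without sgScramble replicate 1 (-0.010) or sgNlrc5 replicate 1 (-0.014, range -0.014 to 0.081). Except where fewer genes or libraries entered, the cause was not tested.

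The labels do not say whether samples of the same replicate number belong together. Same-numbered tumours had correlations of -0.21, 0.11, -0.18 and -0.017 over their deviations from the group means. Tumours of different numbers had -0.20 to 0.27. Same-numbered cultures had -0.015 (TDMa) and -0.024 (TDM). With 2 libraries per guide these deviations mirror each other, so the culture values cannot decide on a pairing. With the replicate block, TDM culture had 122 genes called (62 higher, 60 lower) against 62, and Sdc3 passed there (-0.42, adjusted p = 0.046).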
